A study of Mus musculus with 12 samples.

Results

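Bile acid synthesis and conjugation in the liver were followed through 10 enzyme genes: Cyp7a1, Cyp8b1, Cyp27a1, Cyp7b1, Cyp39a1, Cyp2c70, Hsd3b7, Akr1d1, Slc27a5 and Baat. They were taken by symbol from count tables that list 24062 genes. All 10 were listed, and all 10 were among the 12015 genes that passed the filter on low counts. RNA sequencing measured total liver RNA of male mice aged 14 weeks on a mixed 129SvEV-C57BL/6 background, after 6 weeks on a high-fat diet (HFD, D12492) or a standard diet (SD). The groups were HFD knockouts (n = 2), HFD controls (n = 4), SD knockouts (n = 3) and SD controls (n = 3). Every animal carried floxed Nr5a2, the gene of the nuclear receptor LRH-1. Knockouts received the viral vector AAV8-Cre and controls AAV8-eGFP, and the sources used here name neither the promoter in front of Cre nor the exons it removes. Whether each library stands for its own mouse is not stated in the labels, and the p-values describe variation among libraries, which may be technical.

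Hepatocytes turn cholesterol into bile acids along a classic pathway that begins with Cyp7a1 and an alternative pathway that begins with side-chain oxidation by Cyp27a1. Shared enzymes then reshape the sterol ring, and a ligase and a transferase join the product to an amino acid, mainly taurine in mice. Cyp8b1 decides how much of the product is cholic acid. LRH-1 is known as a factor that binds the promoters of genes of this pathway, and its partner SHP, encoded by Nr0b2, is known as a repressor of them.

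Cyp8b1 had by far the largest difference of the 10 genes between knockouts and controls, and its promoter is shown because it was also the only one of the 5 members matched in the RefSeq promoter table (GRCm38.p6) that held the letters CAAGGNCA, the LRH-1 core motif as searched on both strands. The windows run from 250 bases before the start to 50 bases after it, and 6.71% of all 32851 windows of the same length held the motif. The Cyp8b1 window lies at chr9:121916256-121916555 on the minus strand, and its capitals mark the match, whose first base is at position -60 from the start. The Hsd3b7 window at chr7:127800359-127800658 on the plus strand is shown beside it, since Hsd3b7 also fell on both diets and its window held no match. A match is a string of letters and no measured binding site.
Cyp8b1: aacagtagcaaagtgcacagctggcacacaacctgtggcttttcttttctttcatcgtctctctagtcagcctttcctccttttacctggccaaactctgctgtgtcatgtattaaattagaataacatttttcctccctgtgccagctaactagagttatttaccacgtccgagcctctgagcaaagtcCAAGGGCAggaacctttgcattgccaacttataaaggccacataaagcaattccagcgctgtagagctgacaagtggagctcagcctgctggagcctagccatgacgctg
Hsd3b7: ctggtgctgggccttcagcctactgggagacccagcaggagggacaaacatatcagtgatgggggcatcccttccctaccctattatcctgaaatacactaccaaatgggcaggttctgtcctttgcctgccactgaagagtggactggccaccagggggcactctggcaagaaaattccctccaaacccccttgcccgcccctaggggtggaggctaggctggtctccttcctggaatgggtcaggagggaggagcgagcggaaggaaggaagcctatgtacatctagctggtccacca

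Total counts were 7463792 to 10875478 in HFD libraries and 2371167 to 3404570 in SD libraries, so diet cannot be told apart from the sequencing depth that goes with it. Diet also cannot be told apart from any other difference between the HFD and SD cohorts, and the labels give no batch. The 10 genes together took 0.245% to 0.467% of a library's counts. The libraries labelled knockout showed no loss of whole-gene Nr5a2 counts. It had 69.1 and 84.5 CPM (counts scaled to library size with TMM) in HFD knockouts, against 77.0, 74.5, 64.3 and 66.8 CPM in HFD controls, and 95.3, 100.1 and 94.7 CPM in SD knockouts, against 84.4, 74.8 and 85.8 CPM in SD controls. A count over the whole gene does not show which exons the reads came from. In a principal component analysis, HFD control 1 lay at -3.34 on the second component (11.3% of the variance), between the HFD knockouts at -24.4 and -20.6 and the other HFD controls at 11.8 to 18.8. Results on HFD are therefore also given without that library where it matters. The 7 hepatocyte markers measured were present in every library, and fewer hepatocytes cannot be told apart from less RNA per hepatocyte. The 5 cholangiocyte markers summed to 88.4 to 99.6 CPM in HFD knockouts, against 27.4 to 105 CPM in HFD controls, and to 64.7 to 197 CPM in SD knockouts, against 50.6 to 53.9 CPM in SD controls. Krt7 was at 0 in 4 of these 6 SD libraries, and most of the sum was Spp1, at 51.7 to 189 CPM in SD knockouts, against 42.4 to 46.1 CPM in SD controls. Spp1 also made up most of the sum on HFD, at 81.0 to 89.8 CPM in knockouts, against 19.5 to 95.2 CPM in controls. Over the 3 cholangiocyte markers tested, the median log2 fold change was -0.22 on HFD, with 2 of 3 negative. On SD it was 0.53, with 3 of 3 positive. The 6 stellate cell and fibroblast markers summed to 269.6 to 343 CPM in HFD knockouts, against 185 to 281 CPM in HFD controls, and to 299 to 381 CPM in SD knockouts, against 239.8 to 309 CPM in SD controls. Their median log2 fold change was 0.58 on HFD, with 5 of 6 positive, and 1.04 on SD, with 6 of 6 positive. In edgeR 0 of the 6 passed on either diet, while 2 on HFD and 3 on SD had an unadjusted p under 0.05. The summed hepatocyte markers ran from 122564 to 169384 CPM in HFD knockouts, against 103383 to 108045 CPM in HFD controls. Most of that sum was Alb, at 120467 CPM on average in HFD knockouts and 82006 CPM in HFD controls, while the median log2 fold change over the 7 hepatocyte markers on HFD was -0.044, with 4 of them negative. The part of these cell type markers in the results below was not tested.

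On both diets the knockouts had little Cyp8b1 message and less Hsd3b7 message, while Cyp7a1 was not called changed. On HFD, 2 of the 10 genes fell (Cyp8b1 and Hsd3b7) and 0 rose, where 1.66% of all tested genes fell, 1.04% rose and 2.7% changed in either direction. On SD, 4 of the 10 fell (Cyp8b1, Hsd3b7, Akr1d1 and Slc27a5) and 0 rose, where 2.94% of all tested genes fell, 1.44% rose and 4.38% changed. Passing means an adjusted p under 0.05 in edgeR's quasi-likelihood test, with Benjamini-Hochberg adjustment over all 12015 genes. The median log2 fold change of the 10 genes was -0.14 on HFD and -0.38 on SD, against -0.0074 and 0 for all tested genes. Groups did not overlap for 5 of the 10 genes on HFD, where this held for 22.2% of all genes, and for 4 of the 10 on SD, where it held for 22.6%.

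**Figure D1:**
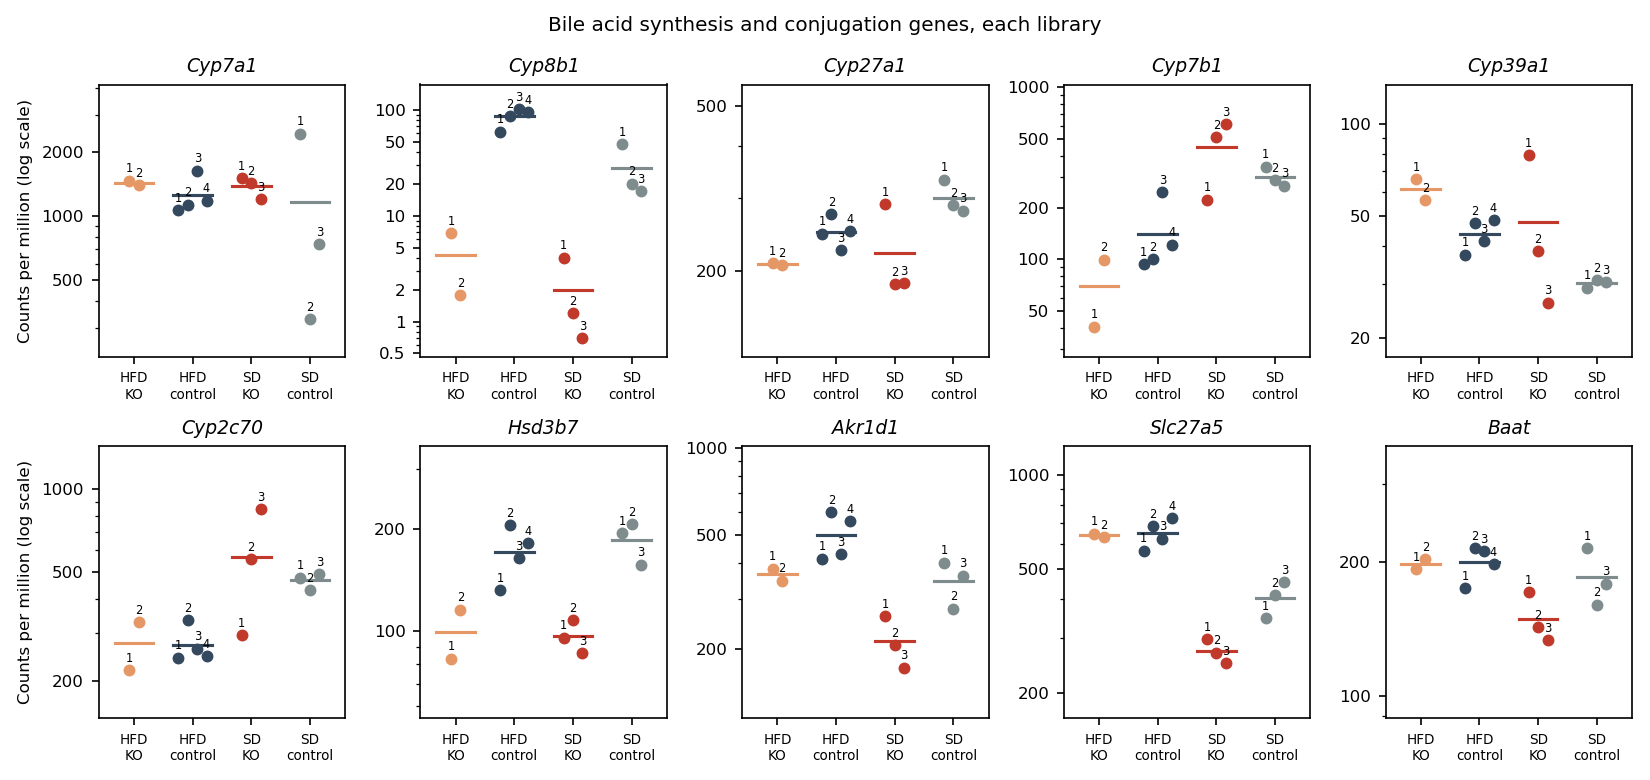
CPM of the 10 genes in each library, on a log scale, with 1 point per library marked by its replicate number and a line at the group mean. Cyp8b1 in knockouts lies at 6.81 CPM or lower, below every control library of its diet, while Cyp7a1 overlaps between knockouts and controls on both diets.

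Cyp7a1, the rate-limiting enzyme of the classic pathway, did not pass on either diet. It had 1468 and 1399 CPM in HFD knockouts, against 1070.4, 1136, 1636 and 1184 CPM in HFD controls. It had 1507, 1435 and 1200.3 CPM in SD knockouts, against 2445, 329 and 739.8 CPM in SD controls. The SD controls span all other libraries: control 1 was the highest of all 12 and control 2 the lowest. Its coefficient of variation in SD controls was 95.8%, against a median of 11.9% over the genes that averaged at least 10 CPM there. The log2 fold change of Cyp7a1 was 0.19 on HFD (SE 0.47, 95% interval -0.81 to 1.19, adjusted p = 0.917) and 0.24 on SD (SE 0.45, interval -0.72 to 1.19, adjusted p = 0.853). Both upper bounds stand for levels 2.29-fold higher in knockouts. The SD value rests on single libraries: without SD control 1 it was 1.37 with an adjusted p of 0.0115, and without SD control 2 it was -0.21.

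Cyp8b1, the sterol hydroxylase that directs synthesis towards cholic acid, was nearly lost from the knockouts. It had 6.81 and 1.79 CPM in HFD knockouts, from 49 and 16 counts, against 62.4, 87.5, 102 and 95.4 CPM in HFD controls. It had 4.00, 1.20 and 0.697 CPM in SD knockouts, from 12, 3 and 2 counts, against 47.6, 20.1 and 17.1 CPM in SD controls. No knockout library reached the lowest control of its diet, and knockout 1 was the highest knockout on each diet. Cyp8b1 was 20.9-fold lower on HFD (log2 fold change -4.39, SE 0.48, interval -5.40 to -3.37, adjusted p = 0.000169) and 13.7-fold lower on SD (-3.77, SE 0.61, interval -5.08 to -2.46, adjusted p = 0.00244). The call held without any one library, but the size moved: the log2 fold change was -5.58 without HFD knockout 1, -3.66 without HFD knockout 2, -4.51 without HFD control 1, -4.88 without SD knockout 1 and -3.17 without SD control 1. These changes rest on few reads in the SD knockouts, where 17 counts were seen in all.

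Within each library, the counts of Cyp8b1 were set against those of Cyp7a1. Cyp8b1 had 0.464% and 0.128% of the Cyp7a1 counts in HFD knockouts, against 5.83%, 7.70%, 6.24% and 8.06% in HFD controls. The share was 0.265%, 0.0837% and 0.0580% in SD knockouts, against 1.95%, 6.11% and 2.31% in SD controls. Every knockout library stood below every control library of both diets, also beside SD control 1, where Cyp7a1 was highest. The ratio was read from the members themselves after their values were seen and was given no test.

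**Figure D2:**
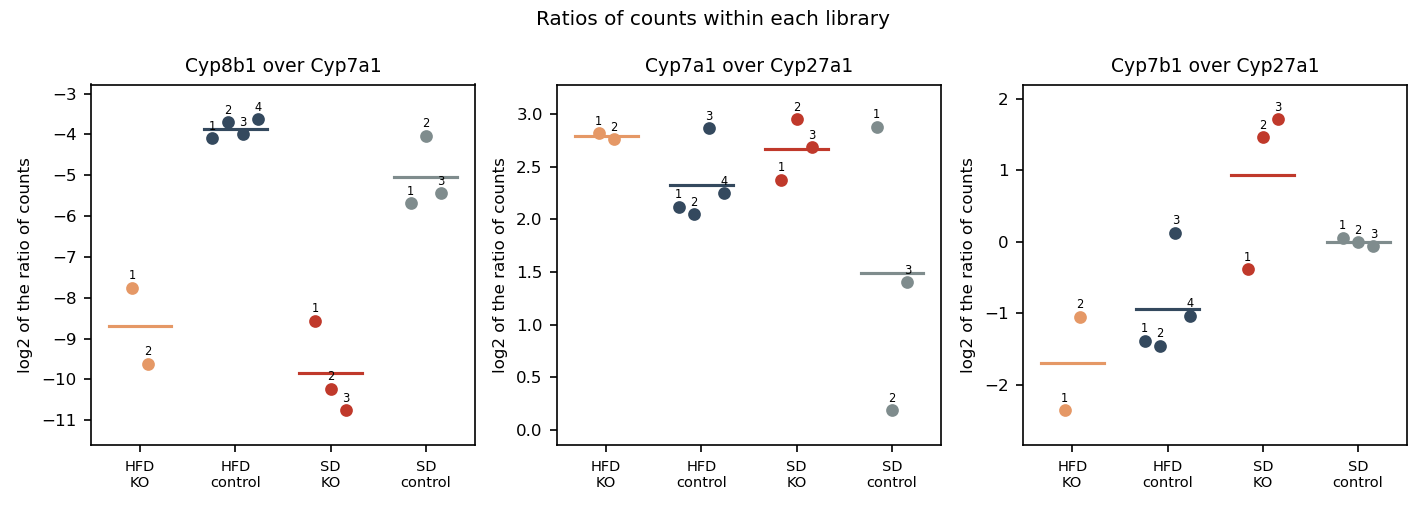
Log2 ratio of counts within each library for Cyp8b1 over Cyp7a1, Cyp7a1 over Cyp27a1 and Cyp7b1 over Cyp27a1, with 1 point per library and a line at the group mean. The knockouts lie below all controls in the first panel, while in the second the 3 SD controls span log2 ratios of 0.19 to 2.88.

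Of the 3 enzymes that handle oxysterols, none passed the test between knockouts and controls on either diet. Cyp27a1, the mitochondrial hydroxylase that opens the alternative pathway, had 209 and 206 CPM in HFD knockouts, against 246, 274, 224 and 249 CPM in HFD controls (log2 fold change -0.26, SE 0.16, adjusted p = 0.525). It had 290.3, 186 and 186 CPM in SD knockouts, against 332, 289 and 279.6 CPM in SD controls (-0.44, SE 0.15, adjusted p = 0.126). The HFD groups did not overlap, and on SD only knockout 1 lay within the control range. Without SD knockout 1 the SD difference was -0.69 with an adjusted p of 0.00533.

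Cyp7b1, which hydroxylates the oxysterols of the alternative pathway, had 40.7 and 99.7 CPM in HFD knockouts, against 94.2, 100.2, 245 and 122 CPM in HFD controls. It had 222, 512 and 611 CPM in SD knockouts, against 346, 288 and 268 CPM in SD controls. Groups overlapped on both diets, and SD knockout 1 stood below the other SD knockouts and below all SD controls. The log2 fold change was -0.99 on HFD (SE 0.43, adjusted p = 0.303) and 0.58 on SD (SE 0.39, adjusted p = 0.491). On HFD it was -0.49 without HFD knockout 1, -0.57 without HFD control 3 and -1.78 without HFD knockout 2. On SD it was 0.29 without SD knockout 3 and 0.90 without SD knockout 1.

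Cyp39a1, a hydroxylase of an oxysterol that arises mostly in brain, had the lowest level per length among the members in HFD controls. It had 66.0 and 56.5 CPM in HFD knockouts, against 37.5, 47.5, 41.4 and 48.5 CPM in HFD controls, without overlap (log2 fold change 0.49, SE 0.25, adjusted p = 0.428). It had 79.0, 38.4 and 26.1 CPM in SD knockouts, against 29.3, 30.9 and 30.5 CPM in SD controls (0.67, SE 0.29, adjusted p = 0.230). The SD controls were within 2 CPM of each other, while the SD knockouts spread over both sides of them. Without SD knockout 1 the SD value was 0.083.

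Both enzymes that reshape the sterol ring fell in SD knockouts, and Hsd3b7 fell in HFD knockouts too. Hsd3b7, the dehydrogenase that acts on the ring after the first hydroxylation, had 83.0 and 116 CPM in HFD knockouts, against 132, 205, 164 and 181 CPM in HFD controls. It had 95.7, 108 and 86.0 CPM in SD knockouts, against 194, 207 and 157 CPM in SD controls. The groups did not overlap on either diet, and HFD control 1 was the lowest control. Hsd3b7 was 1.71-fold lower on HFD (log2 fold change -0.78, SE 0.18, adjusted p = 0.0280) and 1.93-fold lower on SD (-0.95, SE 0.17, adjusted p = 0.00526). The SD call held without any one library. The HFD call was lost without HFD control 2 (adjusted p = 0.0736), HFD control 4 (0.0713) or HFD knockout 1 (0.376) and with only the HFD groups in the fit (0.102), and it held without HFD control 1 (-0.87, adjusted p = 0.00481). In GRCm38, 62.4% of the exon bases of Hsd3b7 are shared with the gene 9430064I24Rik on the opposite strand and 62.0% with Gm49388 on the same strand. No source used here gives the strand setting of the counting, and part of these counts could belong to those genes.

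Akr1d1, the reductase that bends the sterol ring, had 382 and 347 CPM in HFD knockouts, against 413, 597, 428 and 557 CPM in HFD controls. It had 261, 207 and 173 CPM in SD knockouts, against 399.9, 277 and 361 CPM in SD controls. All knockouts lay below all controls of their diet. Akr1d1 passed on SD (log2 fold change -0.69, SE 0.18, adjusted p = 0.0381) and missed the threshold on HFD (-0.45, SE 0.19, adjusted p = 0.271). The SD call was lost without SD control 1 (adjusted p = 0.116), SD control 3 (0.133), SD knockout 2 (0.136) or SD knockout 3 (0.176).

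Cyp2c70, the rodent enzyme that makes muricholic acids, had 220.0 and 329 CPM in HFD knockouts, against 244, 334, 263 and 247 CPM in HFD controls (log2 fold change 0.016, SE 0.28, adjusted p = 0.991). It had 294, 557 and 846 CPM in SD knockouts, against 477, 430.4 and 490.1 CPM in SD controls (0.28, SE 0.27, adjusted p = 0.662). Groups overlapped on both diets. The SD knockouts fell on both sides of the tightly placed SD controls.

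At the conjugation step, Slc27a5, the ligase that activates bile acids with coenzyme A, had 649 and 631 CPM in HFD knockouts, against 572, 684, 624 and 727 CPM in HFD controls. It had 298, 270.2 and 249.7 CPM in SD knockouts, against 349, 413 and 454 CPM in SD controls. The HFD groups overlapped and the SD groups did not. Slc27a5 was 1.49-fold lower on SD (log2 fold change -0.57, SE 0.12, adjusted p = 0.0154), and its HFD value was -0.027 (interval -0.30 to 0.25, adjusted p = 0.961). The SD call was lost without SD control 3 (adjusted p = 0.0860), SD knockout 2 (0.0680) or SD knockout 3 (0.0889).

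Baat, the transferase that links the activated bile acid to its amino acid, did not pass on either diet. It had 193 and 203 CPM in HFD knockouts, against 174, 215, 212 and 198 CPM in HFD controls (log2 fold change -0.013, SE 0.13, adjusted p = 0.982). It had 171, 142 and 133 CPM in SD knockouts, against 215, 160.4 and 179 CPM in SD controls (-0.31, SE 0.13, adjusted p = 0.223). The groups overlapped on both diets.

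**Figure D3:**
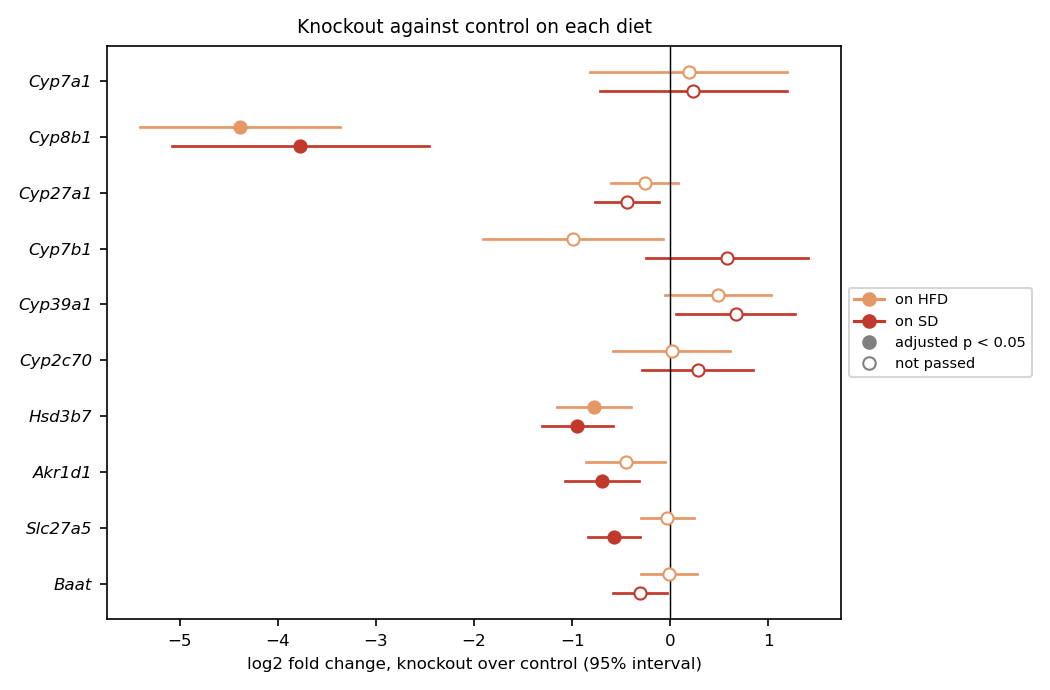
Log2 fold change of knockouts over controls for the 10 genes on HFD and on SD, with 95% intervals from edgeR's test; filled points passed at an adjusted p under 0.05. Cyp8b1 lies at -4.39 and -3.77, and Hsd3b7 is the other gene with filled points on both diets.

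Whether the knockout difference itself changed with diet was tested as the HFD difference minus the SD difference. By edgeR's test 0 of the 10 genes passed, and 0% of all tested genes did. At an unadjusted p under 0.05 there were 911 genes (7.58%), among them Slc27a5 and Cyp7b1. DESeq2 called 30 genes, with 0 of the 10 among them. The difference between the knockout effects was 0.55 for Slc27a5 (SE 0.18, interval 0.17 to 0.92, adjusted p = 0.514) and -1.57 for Cyp7b1 (SE 0.58, interval -2.81 to -0.34, adjusted p = 0.568). For Cyp8b1 it was -0.62, with an interval of -2.60 to 1.37 that leaves a wide range of differences. A call on 1 diet alone, as for Akr1d1 and Slc27a5, was thus not shown to differ between diets.

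Between diets, the members moved in both directions. In controls, 3 of the 10 were higher on HFD (Cyp8b1, Akr1d1 and Slc27a5) and 2 lower (Cyp7b1 and Cyp2c70), where 16.5% of all tested genes were higher, 13.6% lower and 30.1% changed. In knockouts, 3 were higher on HFD (Akr1d1, Slc27a5 and Baat) and 2 lower (Cyp7b1 and Cyp2c70), where 14.9% of all tested genes were higher, 11.7% lower and 26.6% changed. Both diet comparisons share libraries with the knockout comparisons and the difference in depth noted above. After random thinning of each library to an equal depth, 5 members passed in controls and 5 in knockouts. Thinning evens out depth only, and any other difference between the HFD and SD libraries remains.

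Slc27a5 was 2.35-fold higher on HFD in knockouts (log2 fold change 1.23, SE 0.13, adjusted p = 5.87e-06) and 1.61-fold higher in controls (0.69, SE 0.12, adjusted p = 0.00035), without overlap in either genotype. Cyp8b1 was 3.10-fold higher on HFD in controls (1.63, SE 0.35, adjusted p = 0.00217). In knockouts its diet difference was 1.02 (SE 0.79, adjusted p = 0.374). The control call for Cyp8b1 held without any one library, and its size was 2.24 without SD control 1.

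Cyp7b1 was 6.36-fold lower on HFD in knockouts (log2 fold change -2.67, SE 0.48, adjusted p = 0.000758) and 2.14-fold lower in controls (-1.10, SE 0.36, adjusted p = 0.0308). The knockout call held without any one library, with a log2 fold change between -3.45, without HFD knockout 2, and -2.15, without HFD knockout 1. The control call was lost in DESeq2 (adjusted p = 0.0732) and without any one of SD controls 1, 2 and 3 or HFD controls 1, 2 and 4 (adjusted p of 0.0588 to 0.104). Cyp2c70 was lower on HFD by 1.04 in knockouts and 0.78 in controls on the log2 scale (adjusted p = 0.0192 and 0.0256), and Akr1d1 was higher by 0.77 and 0.53 (adjusted p = 0.00858 and 0.0251). Baat was higher by 0.41 in knockouts (adjusted p = 0.0436). With 1 library left out, the calls in controls held in 2 of 7 fits for Cyp2c70 and in 3 of 7 for Akr1d1. In knockouts, the Cyp2c70 and Akr1d1 calls were lost without one or another library, and the Baat call was lost in most such fits. The Cyp2c70 levels of knockouts overlapped between diets. Cyp7a1, Cyp27a1, Cyp39a1 and Hsd3b7 passed in neither genotype, although without SD control 1 Cyp7a1 was higher on HFD in controls (1.24, adjusted p = 0.00295), and without SD knockout 1 Cyp39a1 was higher on HFD in knockouts (0.95, adjusted p = 0.00176). Cyp39a1 also passed as higher on HFD in controls with no filter on low counts (0.56, adjusted p = 0.0470) and with only the control groups in the fit (0.53, adjusted p = 0.00835). Without HFD control 1, 3 members passed in controls, namely Cyp8b1, Akr1d1 and Slc27a5.

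**Figure D4:**
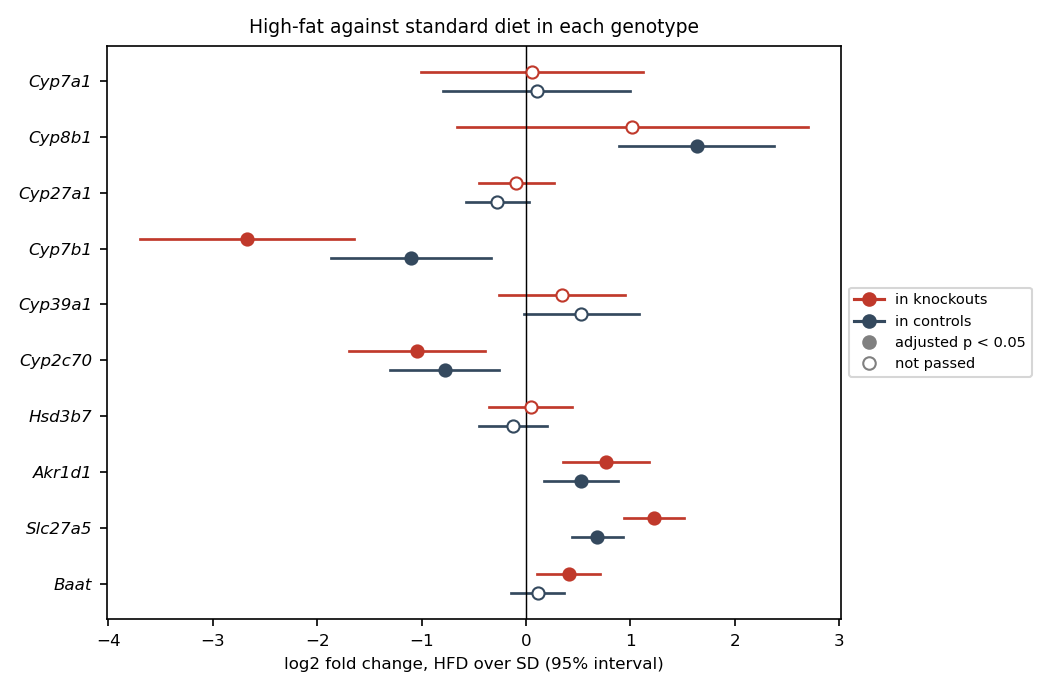
Log2 fold change of HFD over SD for the 10 genes in knockouts and in controls, with 95% intervals from edgeR's test; filled points passed at an adjusted p under 0.05. Slc27a5 and Akr1d1 lie above 0, and Cyp7b1 and Cyp2c70 below 0, in both genotypes.

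Levels of different genes were compared only as CPM per kilobase of exon in GRCm38, a build that differs from the mm9 build of the counts. Cyp7a1 had the highest mean in every group, from 343 ± 11.7 in HFD knockouts and 301 ± 61.6 in HFD controls to 331 ± 38.4 in SD knockouts and 281 ± 269 in SD controls (± standard deviation). Slc27a5 came next on HFD, with 262 ± 5.13 in knockouts and 267 ± 27.9 in controls, and in HFD controls it did not differ from Cyp7a1 beyond their spread. On SD, Cyp2c70 came next, with 286 ± 139 in knockouts and 235 ± 15.9 in controls, and it did not differ from Cyp7a1 beyond their spread in either group. The rank of Cyp7a1 in SD controls rests on control 1, at 586, against 78.8 and 177 in controls 2 and 3. Cyp2c70 was at 241, 217 and 247 in SD controls 1, 2 and 3. Cyp8b1 averaged 2.20 ± 1.82 in HFD knockouts, against 44.5 ± 8.89 in HFD controls, and 1.01 ± 0.913 in SD knockouts, against 14.5 ± 8.64 in SD controls. It had the lowest mean of the 10 in both knockout groups, while Cyp39a1 had the lowest in HFD controls at 14.3 ± 1.71. In SD controls Cyp39a1, at 9.91 ± 0.282, was not separated from Cyp8b1, at 14.5 ± 8.64, beyond their spread.

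SD control 1 and SD knockout 1, which stood apart in members, also stood apart in some clock genes, picked for display after their values were seen. Not every clock gene set them apart. Nr1d2 was at 83.6 to 86.4 CPM and Per3 at 60.7 to 65.3 CPM over the SD controls. Per2 was at 44.8 to 49.8 CPM over the SD knockouts. The 14 clock genes tested gave 0 calls between knockouts and controls on either diet, where 2.7% of all tested genes changed on HFD and 4.38% on SD. Between diets, 6 of the 14 were higher on HFD in controls and 3 in knockouts, with 0 lower in either genotype. Of all tested genes, 16.5% were higher on HFD in controls and 14.9% in knockouts. In SD controls, control 1 with the highest Cyp7a1 had 3.12 CPM of Dbp, against 10.05 and 7.63 CPM in controls 2 and 3, and 84.0 CPM of Per2, against 41.4 and 47.6 CPM. Dbp encodes a clock-driven activator known to act on Cyp7a1, and its part in the Cyp7a1 values was not tested. The Dbp values rest on few reads, with 58 counts over all SD controls and 39 over all SD knockouts. In SD knockouts, knockout 1, with the highest Cyp39a1 and the lowest Cyp7b1 and Cyp2c70, had 1.67 CPM of Dbp, against 6.80 and 5.92 CPM in knockouts 2 and 3, and 28.3 CPM of Nfil3, a clock repressor, against 10.01 and 8.71 CPM. SD control 3 had 26.9 CPM of Nfil3 without such levels of Cyp39a1. The hour of collection is not given in the sources used here, and its part in these values was not tested.

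**Figure D5:**
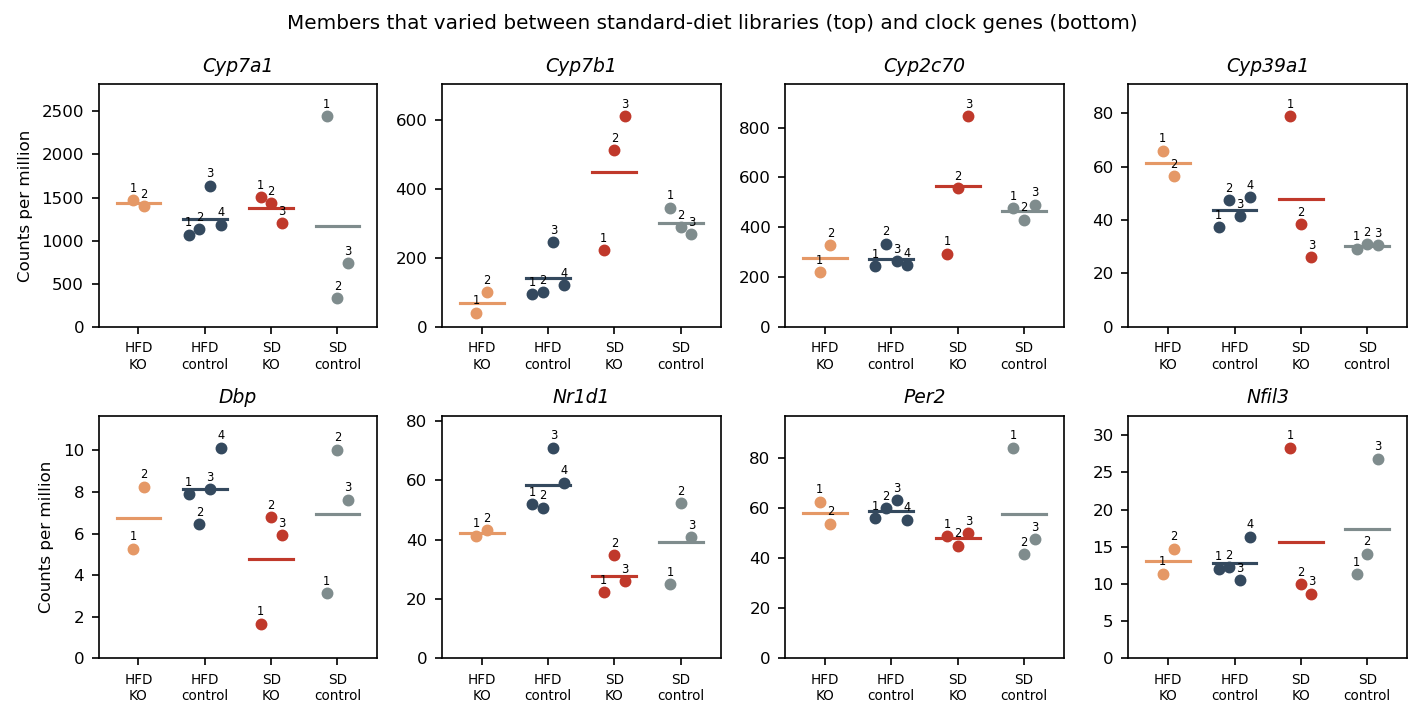
CPM of 4 members (top) and 4 clock genes (bottom) in each library, with 1 point per library marked by its replicate number and a line at the group mean. SD control 1 is highest for Cyp7a1 and Per2 and lowest of its group for Dbp, while SD knockout 1 is lowest of its group for Cyp7b1, Cyp2c70 and Dbp and highest for Cyp39a1 and Nfil3.

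Of 21 other genes of bile acid synthesis, 20 were tested. On HFD, 1 rose (Cyp2a12) and 1 fell (Akr1c6), where 1.04% of all tested genes rose and 1.66% fell. On SD, 2 rose (Cyp2a12 and Ephx1) and 1 fell (Akr1c6), where 1.44% of all tested genes rose and 2.94% fell. Akr1c6, a reductase related to enzymes of the sterol ring, had 903 and 1065 CPM in HFD knockouts, against 1278 to 2083 CPM in HFD controls, and 859, 809.7 and 813 CPM in SD knockouts, against 1856, 1669 and 1722 CPM in SD controls. Its log2 fold change was -0.82 on HFD (SE 0.17, adjusted p = 0.0141) and -1.08 on SD (SE 0.15, adjusted p = 0.000945). The HFD call held under 10 of 12 alternatives. It was lost without HFD knockout 1 and under another alternative in which no library was left out. Akr1c6 shares 90.7% identity over 1337 bases with Akr1c20, so its counts are uncertain where reads map to both.

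Cyp2a12, a mouse bile acid hydroxylase, had 641 and 637 CPM in HFD knockouts, against 394 to 441 CPM in HFD controls, and 704, 641 and 633 CPM in SD knockouts, against 460.4, 464 and 388 CPM in SD controls. All knockouts lay above all controls. Its log2 fold change was 0.61 on HFD (SE 0.10, adjusted p = 0.00484) and 0.59 on SD (SE 0.10, adjusted p = 0.00352). Without HFD knockout 1 the HFD call was lost (adjusted p = 0.0599). Cyp2a12 is 95.4% identical to Cyp2a22 over 3462 bases, with the same uncertainty. Ephx1, an epoxide hydrolase, had 0.48 on HFD (adjusted p = 0.0512) and 0.46 on SD (adjusted p = 0.0471). Its SD call was lost without any one SD library, and on HFD it was called under 5 alternatives, namely RLE size factors, the unfiltered table, DESeq2 (adjusted p = 0.0173) and the fits without HFD control 1 or HFD knockout 2.

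Of 19 regulators of the pathway, 18 were tested. On HFD, 2 fell (Nr0b2 and Klb) and on SD 4 fell (Nr0b2, Klb, Nr1i3 and Nr1h4), and 0 rose on either diet. Of all tested genes, 1.66% fell and 1.04% rose on HFD, and 2.94% fell and 1.44% rose on SD. Nr0b2, the gene of SHP, had 0 and 3 counts in HFD knockouts, against 69, 107, 108 and 58 counts in HFD controls (adjusted p = 0.000378), and 0 counts in each SD knockout, against 27, 38 and 42 counts in SD controls (adjusted p = 0.000381). Its own promoter window held the CAAGGNCA letters at position -201. Klb encodes the coreceptor through which the intestinal hormone FGF15 represses Cyp7a1. It had 10.7 and 7.70 CPM in HFD knockouts, against 18.4 to 23.1 CPM in HFD controls, and 16.7, 18.4 and 15.0 CPM in SD knockouts, against 32.0, 32.96 and 30.5 CPM in SD controls. Its log2 fold change was -1.18 on HFD (SE 0.17, adjusted p = 0.00105) and -0.93 on SD (SE 0.17, adjusted p = 0.00430), and both calls held without any one library.

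Nr1h4, which encodes the bile acid receptor FXR, had 187 and 148 CPM in HFD knockouts, against 195 to 257 CPM in HFD controls, and 167, 169 and 177 CPM in SD knockouts, against 248, 217 and 243 CPM in SD controls. Its log2 fold change was -0.51 on HFD (SE 0.13, adjusted p = 0.0515) and -0.46 on SD (SE 0.12, adjusted p = 0.0483). The SD call was lost without any one SD library and with RLE size factors in edgeR (adjusted p = 0.0507), while the HFD difference was called under 4 alternatives, namely thinned counts, the unfiltered table, DESeq2 (adjusted p = 0.0151) and the fit without HFD control 1 (log2 -0.59, adjusted p = 0.00758). Nr1i3, the gene of the receptor CAR, was at 0.018 on HFD and -0.76 on SD (SE 0.20, adjusted p = 0.0396), and its SD call was lost without 5 of the 6 SD libraries taken 1 at a time. Nr1i3 overlaps Tomm40l, and its counts are uncertain for that reason.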

How the data were processed

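The submitters' processing notes name the build mm9 and the tools HTSeq, TopHat2 2.1.0 and DESeq2 1.14.1. Per the labels' protocols, libraries came from total RNA of flash-frozen liver with a Nugen Ovation kit. The authors deposited 1 file of raw counts per gene symbol and library, with no normalization. From these counts, CPM and tests were computed here in R 4.3.3 with edgeR 4.0.16 (limma 3.58.1): TMM, filterByExpr with a minimum count of 10, 4 group means over all 12 libraries, the two-sided quasi-likelihood test and Benjamini-Hochberg adjustment over 12015 genes. Intervals (95%) and SEs were derived from the test statistic. The fit was tested on simulated data with the same spread for every gene and no diet effect. Changes were set only in well-counted genes of SD knockouts, so low counts, wide spreads and the HFD groups are not covered. Alternatives were DESeq2 1.42.0, RLE size factors, no filter, only the groups compared, thinning, a replicate block and leaving out each library. The depth of the SD libraries limits low counts such as those of Cyp8b1. Groups follow the labels, and no 2 libraries were counted as 1. The members, the gene lists and the tests were chosen with earlier results of these data known. Besides the members, the genes named are Nr5a2, Nr0b2 and up to 4 tested genes per list with the smallest p in each knockout comparison, of which those that passed are described; Dbp, Per2 and Nfil3 were chosen after their values were seen. Sequences are from RefSeq (GRCm38.p6), and exon lengths and overlaps from GRCm38.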

Additional observations from a re-analysis of the deposited data

How the results depend on the processing

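Over 650 combinations of a member, a comparison and an alternative, 569 kept direction and side of the threshold. A call was lost in 38 and gained in 7, and the sign changed in 36. None of the 36 was a called value in the fit over all 12 libraries. Only called values can lose a call, and the 650 also hold values that were not called. Of the 38, 17 were between diets in controls and 10 between diets in knockouts. Between knockouts and controls, 7 were on SD and 4 on HFD. The number of members called was 2 on HFD and 4 on SD between knockouts and controls. It was 1 to 2 on HFD and 2 to 5 on SD when 1 library was left out, and 1 on HFD with only the groups compared. Between diets it was 5 in knockouts and 5 in controls. It was 2 to 6 in knockouts and 2 to 4 in controls when 1 library was left out. The labels do not say whether equal replicate numbers pair libraries. Deviations from the group mean correlated at -0.013 to 0.12 between knockouts and controls of equal number, with 1 of 5 pairs over 0.1. With so few libraries per group these correlations are tied to each other and cannot decide the question. With a replicate block, 2 members were called on HFD, 5 on SD, 0 for the difference between diets, 3 between diets in knockouts and 4 in controls. Under the block, log2 values that changed sign were Cyp2c70 at -0.085, Slc27a5 at 0.033 and Baat at 0.031 between HFD knockouts and controls, and Cyp7a1 at -0.037 and Hsd3b7 at -0.050 between diets in knockouts. Thinned to the smallest library, Slc27a5 was 0.023 and Baat 0.063 between HFD knockouts and controls.

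With 1 library left out, log2 values that crossed 0 between HFD knockouts and controls were those of Cyp2c70 (-0.30 to 0.28), Slc27a5 (-0.076 to 0.036), Baat (-0.065 to 0.033) and Nr5a2 (-0.030 to 0.26). Between SD knockouts and controls they were those of Cyp7a1 (-0.21 to 1.37) and Cyp2c70 (-0.14 to 0.59). For the HFD minus the SD difference they were Cyp7a1 (-1.17 to 0.41), Cyp8b1 (-1.81 to 0.50), Cyp39a1 (-0.48 to 0.42), Cyp2c70 (-0.58 to 0.15) and Hsd3b7 (-0.091 to 0.40). Between diets they were Cyp7a1 (-0.037 to 0.15), Cyp8b1 (-0.17 to 2.14), Cyp27a1 (-0.20 to 0.18) and Hsd3b7 (-0.21 to 0.28) in knockouts, and Cyp7a1 (-0.33 to 1.24) in controls. The cause of these changes was not tested, beyond fewer samples where a library was left out. Over all genes, 325 were called between HFD knockouts and controls, against 127 with only the groups compared and 602 without HFD control 1. On SD 526 were called, and 220 without SD knockout 3.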
